A study of Rattus norvegicus with 54 samples.

Results

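The expression of 10 genes of neutral lipid storage and turnover was followed in the rat left ventricle 1 week after surgery. The genes were Plin2, Plin4, Plin5, Pnpla2, Lipe, Fabp4, Dgat1, Dgat2, Fasn and Scd. They were matched by symbol in the count tables of all 54 libraries, and 10 of 10 were found among the 40319 genes listed. All animals were female athymic rats of the strain F344/NJcl-rnu/rnu, which lack mature T cells, and were 8 weeks old at surgery. The 3 treatments were sham surgery, permanent ligation of the left anterior descending coronary artery with no further treatment (MI), and the same ligation with a bi-level sheet of human cells placed on the epicardium (MI + Cell Sheet). The sheet held endothelial progenitor cells from human blood and smooth muscle cells transdifferentiated from human mesenchymal stem cells. Each treatment had 6 animals, and each heart gave a library from the infarct zone (anterior wall), the border zone (lateral wall) and the remote zone (septum). Sham hearts carry the same zone labels. In the labels the libraries within a group are numbered as technical replicates, whereas the study's methods describe separate hearts. If the labels are taken literally, the p-values cover only the spread between these samples.

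Fatty acids that enter a cell can be joined to glycerol as triacylglycerol and stored in lipid droplets, whose surface is coated by perilipins. Plin2 coats droplets in most cell types, Plin5 tethers droplets to mitochondria in oxidative tissue such as heart, and Plin4 coats nascent droplets in adipose tissue and striated muscle. Triacylglycerol is broken down first by adipose triglyceride lipase (Pnpla2) and then by hormone-sensitive lipase (Lipe), and Fabp4 carries the released fatty acids in adipocytes, macrophages and capillary endothelium. Dgat1 and Dgat2 catalyze the last step of triacylglycerol synthesis. Fasn builds fatty acids de novo, and Scd, a stearoyl-CoA desaturase, introduces a double bond into them. The heart oxidizes fatty acids and makes few of them, while adipose tissue is rich in Fasn, Scd, Dgat2, Lipe, Fabp4 and Plin4. For this reason these 6 genes were described as adipose-linked by textbook role, and Plin2, Plin5, Pnpla2 and Dgat1 as linked to droplets of the cardiomyocyte.

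Between 12699204 and 23397754 reads per library were counted on genes. Levels are given as CPM, counts divided by the library total after TMM scaling and given per 1e+06 counts. A count of 0 allows up to 3 counts, a level of 0.116 to 0.262 CPM depending on the library. Counts are compared between samples for each gene and not between genes, since transcript lengths were not used. An animal in each of 2 treatment groups stood apart from its group. Sham animal 5 had a summed level of 6 macrophage markers between 6285 and 11073 CPM in its 3 libraries, against 241 to 575 CPM in the other sham libraries. Its 7 cardiomyocyte markers summed to between 17932 and 29853 CPM, against at least 49620 CPM in the others. In cell sheet animal 1, the cardiomyocyte markers summed to 143 CPM in the border zone, against 7658 to 24012 CPM in the other 5 animals. The remote zone of the same animal had 2834 CPM of macrophage markers, against 307 to 599 CPM. Calls that changed when either animal was left out are given beside the results. Percentages of all genes tested are from fits with all animals and no covariate. In bulk tissue, fewer cells of a type and less RNA per cell cannot be told apart.

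In the plot of all levels, the genes fell into several patterns. Plin4, Plin5, Pnpla2 and Dgat1 were low in the infarct and border zones of infarcted hearts with or without a sheet, whereas Scd and Fasn stood out in the border zone of hearts with a cell sheet.

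**Figure D1:**
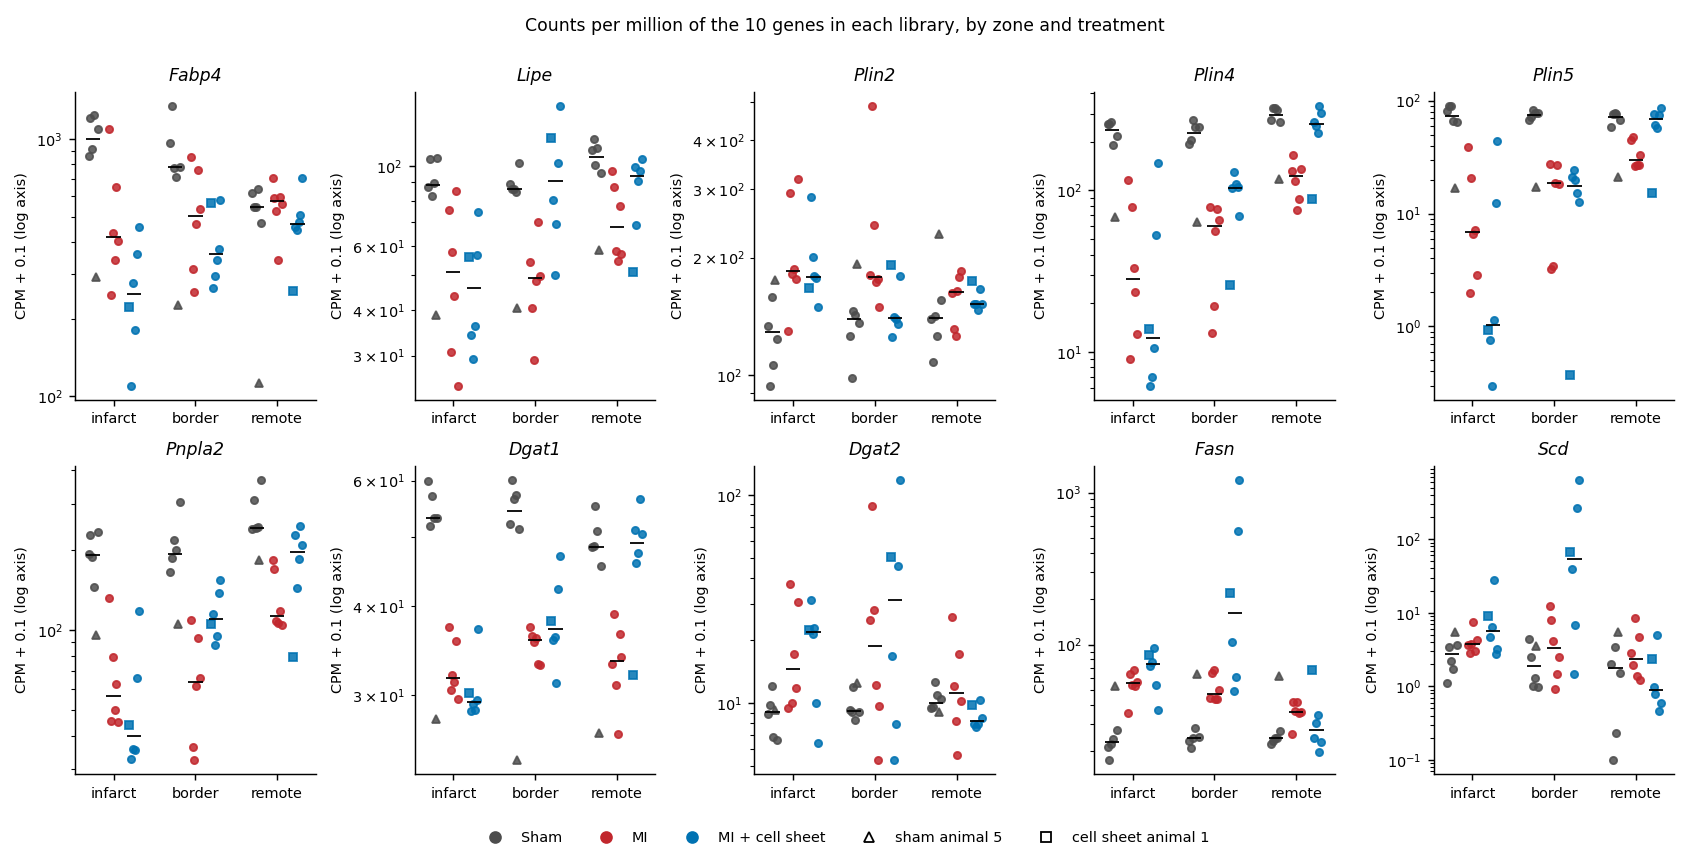
Level of each of the 10 genes (CPM + 0.1, log axis) in all 54 libraries, grouped by zone on the horizontal axis and colored by treatment; bars are group medians of 6 animals, triangles are sham animal 5 and squares cell sheet animal 1. Scd in the border zone of hearts with a cell sheet spans 1.36 to 638 CPM, while the 6 MI hearts span 0.83 to 12.3 CPM.

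The first question was how infarction without treatment changed these genes. In the infarct zone, the droplet coat genes Plin5 and Plin4, the lipase Pnpla2 and the acyltransferase Dgat1 were lower in MI than in sham hearts, and Plin2, Dgat2 and Fasn were higher. Of all 15758 genes tested there with edgeR's quasi-likelihood test, 49.9% had an adjusted p under 0.05, 22.7% as higher and 27.2% as lower in MI. Of the 10 genes, 3 passed as higher and 4 as lower, a share to be read against that background. The median log2 difference of the 10 genes was -0.65, and that of all genes tested was -0.02.

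Plin5 ranged from 16.7 to 90.0 CPM in sham infarct zones with a median of 72.6 CPM, and from 1.88 to 38.8 CPM in MI with a median of 6.78 CPM. The log2 fold change was -2.39 ± 0.69 (SE, 6 animals against 6, adjusted p = 0.0135). Only sham animal 5 fell within the range of the MI hearts. Plin4 ranged from 68.7 to 267 CPM in sham (median 237 CPM) and from 8.88 to 117 CPM in MI (median 28.4 CPM), a log2 fold change of -2.20 ± 0.60 (adjusted p = 0.0102). The other 5 sham hearts all lay above every MI heart, at 192 CPM or more. Plin2, which coats droplets in most cell types, went the other way, from 93.8 to 175 CPM (median 129 CPM) in sham and from 129 to 317 CPM (median 184 CPM) in MI, with overlapping groups and a log2 fold change of 0.69 ± 0.23 (adjusted p = 0.0244).

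Pnpla2, the first lipase, ranged from 95.9 to 233 CPM in sham with a median of 191 CPM, and from 45.1 to 132 CPM in MI with a median of 56.3 CPM. Its log2 fold change was -1.39 ± 0.30 (adjusted p = 0.0033), and again only sham animal 5 overlapped with MI. Lipe, the next lipase, had medians of 88.3 CPM in sham and 50.8 CPM in MI, and its log2 fold change of -0.68 ± 0.32 did not pass the test (adjusted p = 0.097). Fabp4, the fatty acid carrier, had medians of 1007 CPM and 418 CPM and did not pass either (-0.83 ± 0.40, adjusted p = 0.0996). Both passed without sham animal 5, at -0.82 (adjusted p = 0.0242) and -1.01 (adjusted p = 0.0185).

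The acyltransferases moved apart. Dgat1 ranged from 27.6 to 59.9 CPM in sham (median 53.1 CPM) and from 29.6 to 37.2 CPM in MI (median 31.6 CPM), a log2 fold change of -0.63 ± 0.16 (adjusted p = 0.00656). Its lowest value was that of sham animal 5, and the other sham hearts lay above all MI hearts. Dgat2 rose from 6.56 to 11.9 CPM (median 8.97 CPM) to between 9.37 and 37.2 CPM (median 14.4 CPM), a log2 fold change of 1.11 ± 0.35 (adjusted p = 0.0187), with overlapping groups. Of the lipogenic enzymes, Fasn had medians of 22.9 CPM in sham and 55.7 CPM in MI, a log2 fold change of 0.99 ± 0.26 (adjusted p = 0.00854). Its 6 MI values, from 35.3 CPM up, lay above all sham values except the 53.5 CPM of sham animal 5. Scd stayed low in both groups, at 1.00 to 5.44 CPM in sham and 2.72 to 7.46 CPM in MI (adjusted p = 0.30).

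The 7 genes that passed in the infarct zone also passed in the border zone, with the same signs, and Lipe passed as well. There, 41.7% of 15641 genes passed, 18.4% as higher and 23.2% as lower. Plin5 had medians of 74.7 CPM in sham and 18.5 CPM in MI, with MI values from 3.09 to 27.6 CPM, all below the 66.8 CPM of the lowest sham heart other than animal 5 (log2 fold change -2.004 ± 0.56, adjusted p = 0.015). Plin4 had medians of 226 and 60.6 CPM (-1.99 ± 0.47, adjusted p = 0.0074). Pnpla2 had medians of 193 and 63.8 CPM (-1.56 ± 0.33, adjusted p = 0.00433). All MI values of both genes lay below those of the sham hearts other than animal 5. Lipe fell from a median of 86.2 to 48.9 CPM (-0.74 ± 0.23, adjusted p = 0.0234), and Dgat1 from 54.3 to 35.8 CPM (-0.51 ± 0.18, adjusted p = 0.0371). Plin2 (0.75 ± 0.28, adjusted p = 0.0484), Dgat2 (1.504 ± 0.56, adjusted p = 0.0473) and Fasn (0.77 ± 0.26, adjusted p = 0.0348) were higher. MI animal 2 stood highest for both Plin2, at 489.9 CPM against a median of 179 CPM, and Dgat2, at 88.7 CPM against a median of 18.6 CPM. Without that animal, or without sham animal 6, 3 of the 10 genes passed, and without sham animal 1, 2, 3 or 4 or MI animal 3 there were 4, in each case with none higher. Fabp4 (-0.58 ± 0.39, adjusted p = 0.244) and Scd (1.13 ± 0.65, adjusted p = 0.178) did not pass. Without sham animal 5, Fabp4 passed (-0.78, adjusted p = 0.0462).

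In the septum, far from the infarct, 25.8% of 15294 genes passed, 11.7% as higher and 14.2% as lower, and 4 of the 10 genes were among the lower ones. Plin4 ranged from 118 to 325 CPM in sham and from 75.3 to 166 CPM in MI, with medians of 295 and 123 CPM (-1.19 ± 0.24, adjusted p = 0.00443). Pnpla2 had medians of 243 and 113 CPM (-1.01 ± 0.19, adjusted p = 0.00314), and apart from sham animal 5, at 184 CPM, all sham hearts lay above every MI heart. Plin5 had medians of 71.4 and 29.8 CPM (-0.88 ± 0.28, adjusted p = 0.0329), and Dgat1 had medians of 48.4 and 33.4 CPM (-0.46 ± 0.15, adjusted p = 0.0413). For both genes the MI hearts lay below all sham hearts except animal 5. Lipe, at medians of 105 and 67.9 CPM, did not pass (-0.46 ± 0.18, adjusted p = 0.0801), and neither did Plin2, Fabp4, Dgat2, Fasn or Scd. With edgeR's scaling by library size alone, 2 of the 10 genes passed in the remote zone, and without sham animal 5 there were 6. Those added were Lipe (-0.58, adjusted p = 0.00452) and Fasn as higher (0.59, adjusted p = 0.00101). Leaving out any other sham animal, or MI animal 3, 4, 5 or 6, left 2 of the 10 genes.

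The effect of MI was also compared between the infarct and the remote zone within animals, as an interaction, for which 28.9% of 16445 genes passed, 13.6% with a higher and 15.3% with a lower value in the infarct zone. Plin5 fell further in the infarct zone, by a log2 difference of -2.03 ± 0.60 (adjusted p = 0.0224). Fabp4 differed by -1.19 ± 0.27 (adjusted p = 0.00684), with medians of 418 CPM in infarct and 577 CPM in remote zones of MI hearts against 1007 and 546 CPM in sham hearts. Fasn rose more in the infarct zone, by 0.74 ± 0.10 (adjusted p = 0.000615). For the other 7 genes the difference between zones did not pass, among them Scd (-0.36 ± 0.93, adjusted p = 0.805). Plin4 differed by -1.42 ± 0.58 (adjusted p = 0.0781).

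Markers of several cell types moved with these differences. Macrophage markers had medians of 429 CPM in sham and 5092 CPM in MI infarct zones (4 of 6 passed as higher), 468 and 5577 CPM in border zones (5 of 6) and 267 and 1699 CPM in remote zones (2 of 6). The 6 fibroblast markers had medians of 2276 and 13611 CPM, 2429 and 10414 CPM, and 1963 and 6323 CPM, with 4, 5 and 5 of 6 higher. The part of these cell types in the results was not tested. The summed level of the 7 cardiomyocyte markers (Myh6, Myl2, Tnnt2, Tnni3, Actc1, Ryr2 and Pln) had a median of 52936 CPM in sham and 9736 CPM in MI infarct zones, of 52110 and 18179 CPM in border zones and of 56697 and 30985 CPM in remote zones. All 7 markers were lower in the infarct and the border zone of MI hearts and 3 of 7 in the remote zone. Apart from sham animal 5, the sum was higher in every sham than in every MI library of the same zone. In the infarct zone it was at least 49788 CPM in these sham and at most 31705 CPM in MI libraries. In the border zone it was at least 49620 and at most 23902 CPM. A fit with these markers as a covariate can therefore hardly separate them from the treatment. With the mean log2 level of these markers as a covariate, none of the 10 genes passed in the infarct or border zone (0 of 10 in each), and in the remote zone none of the 4 genes that had passed did so. Fabp4 passed there instead, as higher (1.54, adjusted p = 0.0142). The log2 fold change of Plin5 was then -0.04 in the infarct zone (adjusted p = 0.936) and 0.02 in the border zone (adjusted p = 0.946). That of Pnpla2 was -0.43 (adjusted p = 0.364) and -0.55 (adjusted p = 0.173). The sign of Plin2 and Dgat2 in both zones and of Plin5 in the border and remote zones turned under this covariate, as did that of Dgat1 in the remote zone. With the mean log2 level of 6 adipocyte markers as the covariate instead, 0, 2 and 2 of the 10 genes passed in the infarct, border and remote zones, Plin4 and Pnpla2 in the border and in the remote zone. The calls were lost in the infarct zone while the log2 fold changes stayed near those without it, at -1.985 for Plin4, -1.998 for Plin5, -1.19 for Pnpla2, -0.62 for Dgat1 and 1.15 for Dgat2 (adjusted p from 0.0589 to 0.133). In the border zone Dgat2 and Plin2 shrank, to 0.17 and 0.42 (adjusted p = 0.849 and 0.382), while Plin5 was at -2.05 and Fasn at 0.78. The adipocyte sum of MI and sham hearts did not overlap in either zone, so these fits can hardly separate it from the treatment. Of its 6 markers, 2 had enough counts to be tested in each of these zones. Adipoq had no count in 3 of 6 MI and 4 of 6 sham border libraries, and Lep in 5 of 6 and 1 of 6. Cfd and Trarg1 had counts in all 54 libraries.

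**Figure D2:**
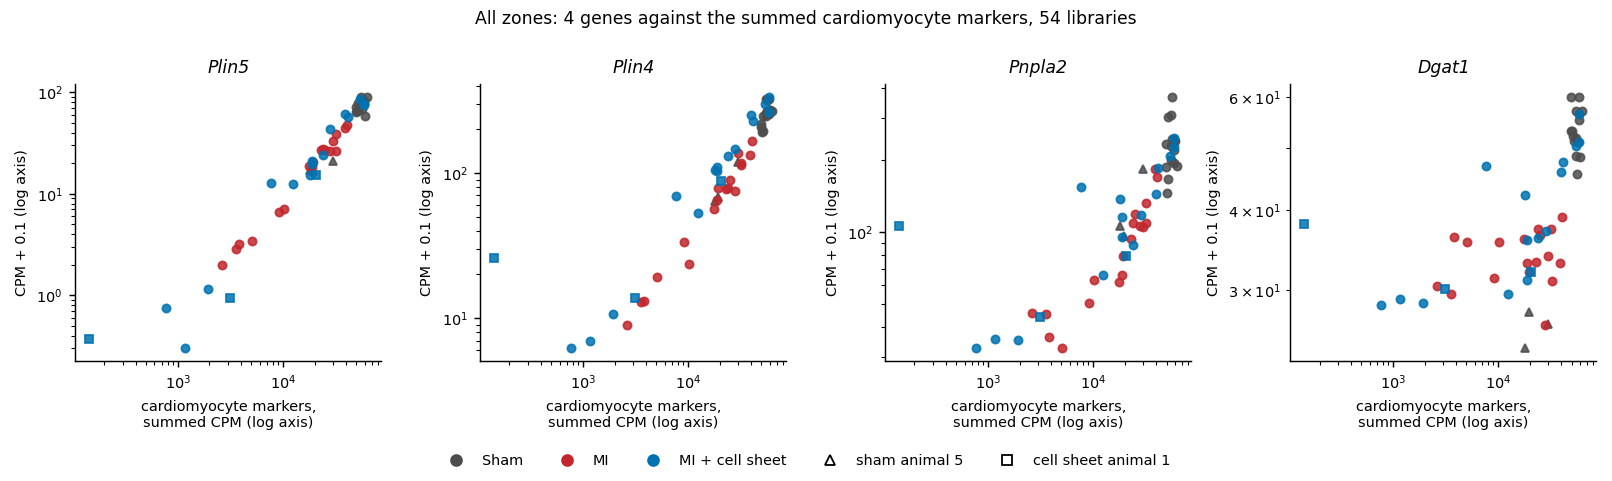
Level of Plin5, Plin4, Pnpla2 and Dgat1 (CPM + 0.1, log axis) against the summed level of 7 cardiomyocyte markers (CPM, log axis) in 54 libraries, colored by treatment, with sham animal 5 as triangles and cell sheet animal 1 as squares. Plin5 falls with the markers and is at 0.27 CPM in the library with 143 CPM of markers. Its lowest value, 0.20 CPM, is in a cell sheet infarct zone, where the markers sum to 767 CPM or more. Dgat1 stays between 24.2 and 60.0 CPM.

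Over the 54 libraries, Pearson's r with the cardiomyocyte score, the mean log2 CPM of its markers, was 0.98 for Plin5, 0.90 for Plin4, 0.78 for Pnpla2 and 0.57 for Dgat1. These values describe libraries that share hearts and treatments. Plin4, which had been placed with adipose tissue, had r = -0.47 with the adipocyte score. Fabp4 and Lipe followed endothelial markers (r = 0.76 and 0.84) and not adipocyte markers (r = -0.26 and -0.02). Fasn, Scd and Dgat2 followed adipocyte markers, with r of 0.84, 0.81 and 0.73. Plin2, which had been placed with droplets of the cardiomyocyte, had r = -0.64 with the cardiomyocyte score. Its highest r, 0.64, was with macrophage markers, and Fasn and Dgat2 had r of 0.72 and 0.58 with these markers. Dgat1 had r of -0.81 with macrophage and -0.72 with fibroblast markers, and Pnpla2 of -0.84 and -0.88.

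The genes most alike in pattern, out of 14839 with a mean of at least 1 CPM, are named next as a description. Plin5 was most like Adssl1, Rpl3l and Macrod1 (r = 0.99 each). Plin4 was most like Slc2a4, the insulin-responsive glucose transporter, Tmem179 and Acsl1, a long-chain acyl-CoA synthetase (r from 0.98 to 0.99). Among the genes most like Pnpla2 were Stard8 and again Acsl1 (r = 0.95 and 0.94). Dgat1 was most like Gpt, Retsat and Zadh2 (0.86 to 0.88). Fabp4 was most like Rbp7, Gpihbp1, which holds lipoprotein lipase on capillary endothelium, and the endothelial sialomucin Emcn (0.88 to 0.91). Lipe was most like Ptprb, an endothelial phosphatase, Dock9 and the monoglyceride lipase Mgll (0.89 to 0.90). Fasn was most like Acly, which supplies cytosolic acetyl-CoA for lipogenesis, Slc1a5 and the adrenergic receptor gene Adrb3 of adipocytes (0.89 to 0.94). Scd was most like C4b, C4a and Cidec (0.81 to 0.87). Dgat2 was most like Mgst1, Lrg1 and Hp (0.79 to 0.84), and Plin2 like Atp6v1b2, the glucose transporter gene Slc2a1 and Pgs1 (0.82 to 0.83).

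The promoter windows of the genes that these results turn on are shown to set the sequences of genes that fell together (Plin4, Plin5, Pnpla2) beside those of Plin2 and Scd, which did not. RefSeq windows of the GRCr8 assembly, from 250 bases before to 50 bases after the gene start, were matched for 5 of the 10 genes. For Plin2, with 2 windows in the table, and Plin4, with 5, the first listed is shown. Plin4 (chr9:1025200-1025499, minus strand) and Plin5 (chr9:1033235-1033534, minus strand) are neighbors on chromosome 9. Plin2 lies at chr5:106228969-106229268 (minus strand), Pnpla2 at chr1:205982029-205982328 (plus strand) and Scd at chr1:253231682-253231981 (minus strand). Capitals mark matches, on either strand, to any of 5 motifs. These are the nuclear receptor half-site AGGTCA, the E-box CACGTG, the CCAAT box (the letters CCAAT), the TATA box TATAAA and the GC box GGGCGG.
Plin4: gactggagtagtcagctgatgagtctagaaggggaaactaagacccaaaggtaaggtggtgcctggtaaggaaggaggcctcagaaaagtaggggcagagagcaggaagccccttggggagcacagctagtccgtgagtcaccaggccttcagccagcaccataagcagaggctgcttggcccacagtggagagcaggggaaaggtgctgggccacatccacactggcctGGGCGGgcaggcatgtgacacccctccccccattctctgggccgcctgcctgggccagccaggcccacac
Plin5: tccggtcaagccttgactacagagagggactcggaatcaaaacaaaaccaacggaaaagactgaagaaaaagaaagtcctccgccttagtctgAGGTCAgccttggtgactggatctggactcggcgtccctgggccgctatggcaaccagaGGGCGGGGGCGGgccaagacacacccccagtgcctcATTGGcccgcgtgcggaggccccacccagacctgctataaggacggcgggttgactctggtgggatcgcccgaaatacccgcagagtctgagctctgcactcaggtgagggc
Pnpla2: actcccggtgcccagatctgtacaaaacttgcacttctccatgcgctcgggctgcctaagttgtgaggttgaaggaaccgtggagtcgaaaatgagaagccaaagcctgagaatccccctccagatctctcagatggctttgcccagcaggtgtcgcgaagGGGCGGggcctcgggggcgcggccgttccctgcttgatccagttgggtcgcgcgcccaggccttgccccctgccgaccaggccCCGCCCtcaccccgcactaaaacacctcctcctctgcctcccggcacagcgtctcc
Plin2: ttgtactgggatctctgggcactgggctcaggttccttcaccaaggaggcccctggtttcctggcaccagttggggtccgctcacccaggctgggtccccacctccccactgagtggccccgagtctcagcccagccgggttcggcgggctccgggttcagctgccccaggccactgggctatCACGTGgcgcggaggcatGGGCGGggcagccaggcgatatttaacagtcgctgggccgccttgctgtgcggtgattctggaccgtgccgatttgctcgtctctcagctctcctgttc
Scd: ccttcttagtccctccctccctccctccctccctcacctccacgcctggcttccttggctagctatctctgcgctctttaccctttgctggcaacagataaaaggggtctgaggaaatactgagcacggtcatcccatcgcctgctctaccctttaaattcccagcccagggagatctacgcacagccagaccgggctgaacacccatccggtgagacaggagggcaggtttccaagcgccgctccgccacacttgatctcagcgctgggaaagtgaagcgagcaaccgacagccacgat

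The half-site occurred in Plin5 alone of these windows, with its first base at position -157 from the gene start, and 16.2% of 33469 rat promoter windows hold it. The E-box occurred in Plin2 alone, at position -67, and is held by 6.42% of windows. A CCAAT box lay in Plin5 at position -62 (37.5% of windows), GC boxes lay in Plin5, Pnpla2, Plin4 and Plin2 (33.1%), and the TATA box was in none of the 5 windows (14.2%). The Scd window held none of the 5 motifs. No 2 motifs overlapped each other. A match is a description of letters and not of a bound factor.

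Other genes of the same pathways were counted from lists of 44 genes in 4 groups. Of all genes tested in the infarct zone, 22.7% passed as higher and 27.2% as lower in MI, the background for these counts. In the infarct zone of MI hearts, 2 of 6 tested genes of droplet coat and growth rose and 3 fell, 1 of 7 lipolysis genes rose and 3 fell, 3 of 12 genes of triacylglycerol synthesis rose and 3 fell, and 4 of 13 genes of lipogenesis and its regulators rose and 5 fell. Hilpda, a hypoxia-induced inhibitor of Pnpla2, rose by a log2 fold change of 1.04 in the infarct zone (adjusted p = 0.00569), 1.66 in the border zone (adjusted p = 0.0095) and 0.93 in the remote zone (adjusted p = 0.0106). G0s2, another inhibitor of this lipase, fell in the infarct zone (-1.03, adjusted p = 0.008). Gpam and Lpin1, which act earlier in triacylglycerol synthesis than the Dgat enzymes, had log2 fold changes of -1.38 and -1.77 in the infarct zone (adjusted p = 0.0045 and 0.00275), and both fell in the remote zone as well, by 0.95 and 1.08 on the log2 scale (adjusted p = 0.00485 and 0.00613). Of the transcriptional regulators, Srebf1 rose in the infarct zone (0.44, adjusted p = 0.0363), while Mlxipl (-1.35, adjusted p = 0.0166) and Pparg (-0.80, adjusted p = 0.00442) fell there. Lipogenesis thus had members in both directions, with a median log2 difference of 0.18 beside -0.02 over all genes tested.

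The next question was whether the cell sheet changed these genes in infarcted hearts. The largest differences lay in the border zone, where Scd, Fasn and Lipe were higher in MI + Cell Sheet than in MI hearts. Of 16272 genes tested there, 18.0% passed, 8.47% as higher and 9.48% as lower, and 3 of the 10 genes passed, all as higher. The median log2 difference was 0.67 for the 10 genes and 0.00 for all genes tested.

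Scd measured 67.6, 39.4, 1.36, 6.62, 264.5 and 638 CPM in the border zones of cell sheet animals 1 to 6, against 12.3, 7.76, 4.02, 0.83, 1.37 and 2.43 CPM in MI animals 1 to 6. The log2 fold change was 5.16 ± 1.31 (35.8-fold, adjusted p = 0.0179). Cell sheet animals 1, 2, 5 and 6 lay above all MI hearts, and animals 3 and 4 lay among them. Fasn measured 217, 104, 49.5, 60.9, 562 and 1209 CPM in the same cell sheet animals, against 44.1 to 67.5 CPM (median 47.4 CPM) in MI hearts, a log2 fold change of 2.81 ± 0.73 (7.03-fold, adjusted p = 0.0195). The same 4 animals lay above all MI hearts. Lipe measured 119, 80.2, 49.98, 69.1, 102 and 146 CPM, against 29.1 to 69.8 CPM (median 48.9 CPM), a log2 fold change of 0.96 ± 0.26 (1.94-fold, adjusted p = 0.0254).

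The call for Lipe was lost without cell sheet animal 5 (adjusted p = 0.0521) or animal 6 (adjusted p = 0.0554). Without animal 6, the animal with the highest values, the log2 fold change was 3.99 for Scd and 1.92 for Fasn, and both still passed. Without animal 1, whose border library was nearly free of cardiomyocyte markers, Scd, Fasn and Lipe passed at 5.33, 2.94 and 0.89 (adjusted p = 0.0192, 0.0212 and 0.042). Scd shares much of its coding sequence with the neighboring gene Scd2, and reads that fit both may have been lost or split in counting, so the level of Scd is uncertain. Scd2 itself, named here after its values were seen, ranged from 215 to 279 CPM in cell sheet and from 149 to 266 CPM in MI border zones.

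Adipocyte markers moved with these genes from animal to animal. The 6 markers (Adipoq, Lep, Retn, Cfd, Adrb3 and Trarg1) summed to 1133, 393, 25.5, 67.5, 670.4 and 1335 CPM in the border zones of cell sheet animals 1 to 6, against 42.4 to 278 CPM in MI and 12.8 to 38.8 CPM in sham border zones. Adipoq, which encodes adiponectin, reached 233 CPM in cell sheet animal 6 and had no count in animal 3, while 3 of 6 MI and 4 of 6 sham border libraries had no count. Of the 4 markers tested, Trarg1, named here after its values were seen, passed (log2 fold change 2.79, adjusted p = 0.00584), and Adipoq did not (4.70 ± 1.67, adjusted p = 0.0714). Of 3 markers of brown fat, Elovl3 had no count in 53 of 54 libraries, and Ucp1 had none in 42 and reached at most 0.33 CPM in a border zone. Cidea, the remaining one, had counts in every library, so the sum of the 3 was nearly all Cidea and says little of brown fat. This sum was 7.19 to 67.9 CPM in cell sheet, 12.7 to 80.5 CPM in MI and 73.5 to 152.6 CPM in sham border zones. The mean log2 level of the 3 had r = 0.91 with Plin5 over the 54 libraries. With the adipocyte score as a covariate, none of the 10 genes passed (0 of 10), and the log2 fold changes of Scd, Fasn and Lipe were 0.04, 0.26 and 0.37 (adjusted p = 0.973, 0.80 and 0.378). The 18.0% of all genes is the share without this covariate, and the share with it is not given here, so the count of 0 cannot be set against a background. Other markers had border medians of 1120 CPM in cell sheet and 979 CPM in MI hearts (endothelial, 1 of 6 higher). Macrophage markers had 2207 and 5577 CPM (1 of 6 lower), fibroblast markers 16330 and 10414 CPM (0 of 6 passed). Cardiomyocyte markers had 18399 and 18179 CPM (0 of 7). Over all 54 libraries Lipe had r = 0.84 with the endothelial and -0.02 with the adipocyte score. The part of adipocytes or of these other cell types in the difference was not tested.

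**Figure D3:**
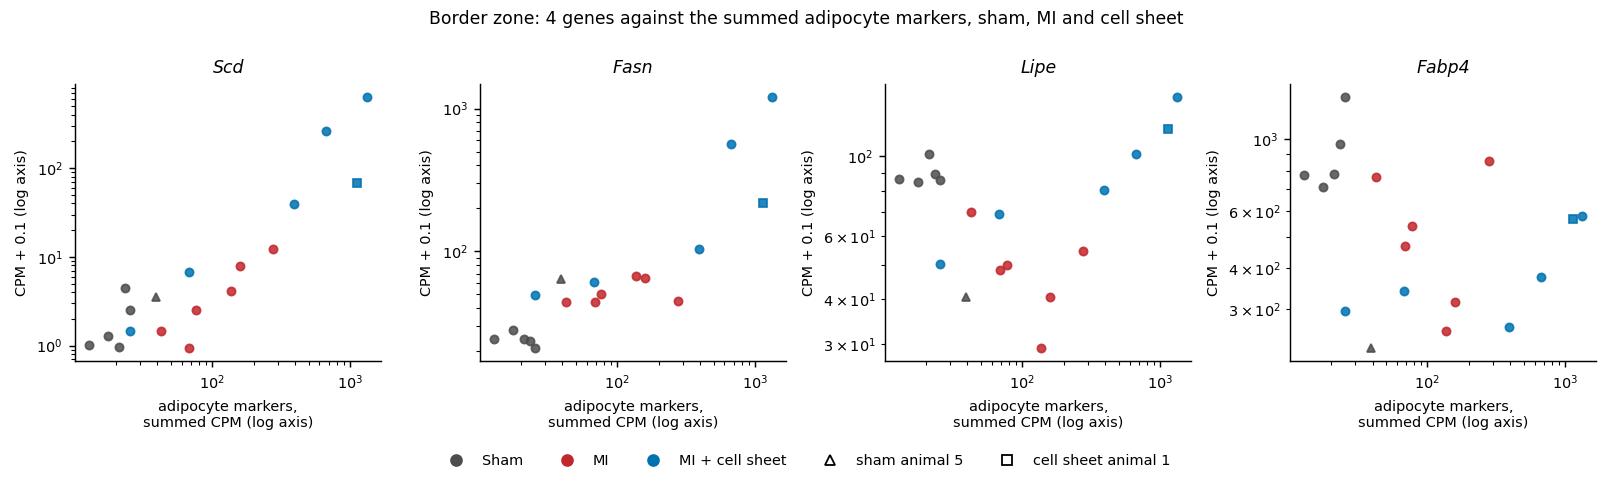
Level of Scd, Fasn, Lipe and Fabp4 (CPM + 0.1, log axis) against the summed level of 6 adipocyte markers (CPM, log axis) in the 18 border zone libraries, colored by treatment, with sham animal 5 as a triangle and cell sheet animal 1 as a square. The 4 cell sheet libraries with the most marker counts, from 393 to 1335 CPM, are also those with the most Scd, from 39.4 to 638 CPM, while Fabp4 has its highest values in sham libraries, where the markers do not exceed 38.8 CPM.

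The remaining genes placed with adipose tissue by textbook role did not pass in the border zone. Fabp4 ranged from 264 to 580.0 CPM in cell sheet and from 256 to 855 CPM in MI border zones (log2 fold change -0.40 ± 0.32, adjusted p = 0.413). Plin4 ranged from 25.9 to 130.1 CPM against 12.96 to 79.1 CPM (0.81 ± 0.47, adjusted p = 0.257), and its lowest value was that of cell sheet animal 1. Dgat2 ranged from 5.24 to 118 CPM in cell sheet and from 5.23 to 88.7 CPM in MI hearts (0.54 ± 0.80, adjusted p = 0.686), with the highest cell sheet values in animals 6, 1 and 5.

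Among the genes placed with cardiomyocyte droplets by textbook role, none passed in the border zone. Pnpla2 ranged from 88.1 to 155 CPM in cell sheet and from 32.4 to 109 CPM in MI hearts (0.80 ± 0.29, adjusted p = 0.073). Plin5 had medians of 17.4 and 18.5 CPM (-0.07 ± 0.74, adjusted p = 0.958), and cell sheet animal 1 had 0.27 CPM. Plin2 ranged from 125 to 191 CPM in cell sheet and from 149.6 to 489.9 CPM in MI hearts (-0.63 ± 0.27, adjusted p = 0.128), and Dgat1 had medians of 37.1 and 35.8 CPM. With the cardiomyocyte score as a covariate, 6 of the 10 genes passed, 5 as higher and 1 as lower. Those added were Plin4 (1.10, adjusted p = 0.0116), Pnpla2 (0.91, adjusted p = 0.0328) and Plin2 (-0.67, adjusted p = 0.0374). The share of all genes passing with this covariate is not given here. Cell sheet animal 1, with 143 CPM of these markers against 7658 to 24012 CPM in the other cell sheet animals, lies far from the rest on this covariate.

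Pathway lists in the border zone are to be read against 8.47% of all genes higher and 9.48% lower with the cell sheet. Of droplet coat and growth, 2 of 8 tested genes were higher and 1 lower, and none of 7 lipolysis genes passed (0 of 7). Of triacylglycerol synthesis, 2 of 12 genes were higher, and of lipogenesis and its regulators 4 of 14. Plin1, the perilipin of adipocyte droplets, was higher by 6.34 ± 1.53 on the log2 scale (adjusted p = 0.0142) and measured 128, 42.6, 2.07, 133 and 193 CPM in cell sheet animals 1, 2, 4, 5 and 6, with no count in animal 3. Cidec, which fuses adipocyte droplets, was higher by 4.92 ± 1.30 (adjusted p = 0.021). Acaca, which makes the malonyl-CoA that Fasn uses (1.63, adjusted p = 0.0164), the regulators Srebf1 (1.18, adjusted p = 0.0252) and Pparg (1.63, adjusted p = 0.0167), and Gpam (0.94, adjusted p = 0.0121) were higher. Hilpda was lower (-1.37, adjusted p = 0.0498). The animals with much Plin1 were those with much Scd and Fasn.

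In the infarct zone, none of the 10 genes passed between MI + Cell Sheet and MI hearts (0 of 10), and 0 of 16196 genes passed with edgeR (0%), with 1341 at an unadjusted p under 0.05. DESeq2 called 55 genes and none of the 10 (0 of 10), of which Fabp4 alone had an unadjusted p under 0.05 with edgeR. The groups overlapped for all 10 genes. Scd ranged from 2.63 to 27.5 CPM in cell sheet and from 2.72 to 7.46 CPM in MI hearts, Fasn from 36.9 to 94.2 CPM and from 35.3 to 68.0 CPM, and Fabp4 from 110.1 to 455 CPM and from 248 to 1099 CPM. Plin5 ranged from 0.20 to 43.4 CPM with a median of 0.94 CPM in cell sheet and had a median of 6.78 CPM in MI hearts.

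With the infarct and border libraries of each animal summed, as the study combined these zones, 12.1% of 17985 genes passed, 6.02% as higher and 6.09% as lower. Scd (log2 fold change 4.42 ± 0.94, adjusted p = 0.0127) and Fasn (2.08 ± 0.54, adjusted p = 0.0274) passed, and the other 8 did not. Leaving out MI animal 1, 3, 4, 5 or 6 or cell sheet animal 5 left 1 of these. With the adipocyte score as a covariate, none of the 10 did (0 of 10).

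In the remote zone other genes passed the test. Of 15374 genes tested, 17.1% passed, 10.3% as higher and 6.79% as lower with the cell sheet, and Plin4 and Dgat1 were the 2 of the 10 genes that passed, both as higher. Plin4 measured from 88.6 to 335 CPM in cell sheet hearts (median 258 CPM) and from 75.3 to 166 CPM in MI hearts (median 123 CPM), a log2 fold change of 1.02 ± 0.27 (adjusted p = 0.0252). Cell sheet animal 1 had the 88.6 CPM, and the other 5 animals lay at 227 CPM or more, above all MI hearts. Dgat1 measured from 32.0 to 56.5 CPM in cell sheet (median 48.9 CPM) and from 26.4 to 38.9 CPM in MI hearts (median 33.4 CPM), a log2 fold change of 0.49 ± 0.13 (adjusted p = 0.0257), and here too animal 1 was the only one within the range of the MI hearts. Plin5 had medians of 67.9 and 29.8 CPM and did not pass with all animals (0.84 ± 0.32, adjusted p = 0.0804).

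The 17.1% of all genes is the share with all animals and is no background for fits that leave 1 out. Without cell sheet animal 1, 5 of the 10 genes passed in the remote zone. These were Plin4 (1.20, adjusted p = 0.000382), Plin5 (1.05, adjusted p = 0.000651), Dgat1 (0.58, adjusted p = 0.000801) and Pnpla2 (0.60, adjusted p = 0.0153) as higher and Fasn (-0.48, adjusted p = 0.024) as lower. Without cell sheet animal 2, 3, 5 or 6, or without MI animal 3 or 4, none of the 10 passed (0 of 10), and without MI animal 5 there was 1. These MI libraries are also those of the comparison with sham. The cardiomyocyte markers summed to medians of 48064 CPM in cell sheet and 30985 CPM in MI remote zones, the macrophage markers to 385 and 1699 CPM and the fibroblast markers to 2158 and 6323 CPM. With the cardiomyocyte score as a covariate, Plin4 passed (0.60, adjusted p = 0.0383) and Dgat1 did not (0.32, adjusted p = 0.0622). Scd and Fasn, which stood out in the border zone, had remote medians of 0.79 and 27.2 CPM with the cell sheet, against 2.28 and 36.2 CPM in MI hearts.

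Other genes of triacylglycerol synthesis were also higher in the remote zone, 3 of 12, and 3 of 13 lipogenesis genes were higher and 1 lower. No gene of droplet coat and growth or of lipolysis passed (0 of 6 and 0 of 7). Of all genes tested there, 10.3% passed as higher and 6.79% as lower. Lpin1 had medians of 170.3 CPM in cell sheet, 68.7 CPM in MI and 170.1 CPM in sham remote zones (cell sheet against MI 1.16 ± 0.27, adjusted p = 0.0159). Gpam had medians of 171 CPM, 81.5 CPM and 169 CPM (0.94 ± 0.22, adjusted p = 0.0157). Acaca was higher by 0.40 ± 0.10 (adjusted p = 0.0174).

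The effect of the cell sheet was also compared between zones of the same animals. None of the 10 genes (0 of 10) and 0 of 16784 genes (0%) differed between border and remote zone with edgeR, with 3430 at an unadjusted p under 0.05, whereas limma-voom called 416 genes and none of the 10 (0 of 10). The log2 difference was 5.02 ± 1.68 for Scd (adjusted p = 0.148) and 2.01 ± 0.80 for Fasn (adjusted p = 0.20). Between border and infarct zone, 0 of 17275 genes (0%) and 0 of the 10 genes passed, with 2012 at an unadjusted p under 0.05, and limma-voom called 147 genes and none of the 10 (0 of 10). The log2 difference was 3.03 ± 1.93 for Scd (adjusted p = 0.575) and 1.44 ± 0.88 for Fasn (adjusted p = 0.558). The higher Scd and Fasn of the border zone were thus not shown to differ from the effect in the other zones. For Plin4 and Dgat1, which passed in the remote zone, edgeR's test of border against remote zone gave adjusted p = 0.965 and 0.233. Their effect in the remote zone was not shown to differ from that in the border zone either.

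**Figure D4:**
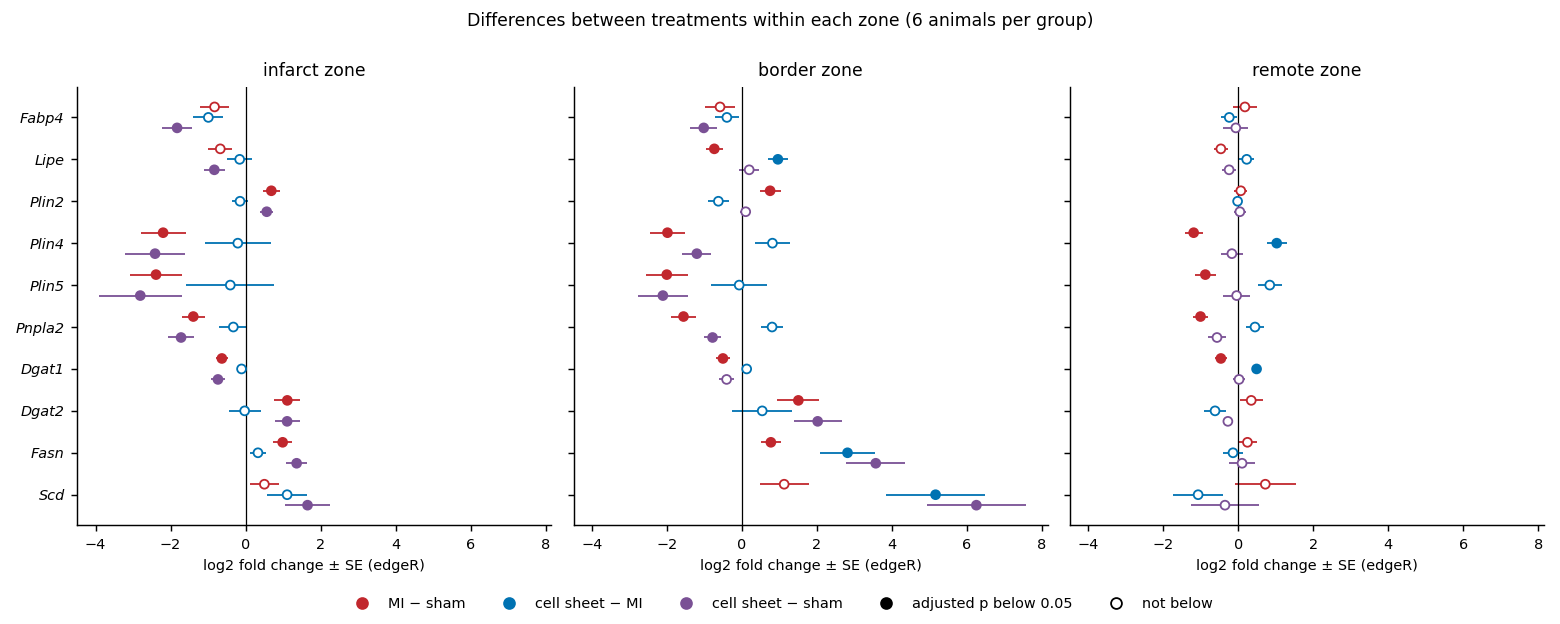
Log2 fold change with its SE from edgeR for the 10 genes in the infarct, border and remote zones, for MI against sham (red), cell sheet against MI (blue) and cell sheet against sham (purple), 6 animals per group; filled points have an adjusted p under 0.05. In the border zone the blue and purple points of Scd lie at 5.16 and 6.25, and in the remote zone no purple point is filled.

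Against sham, which shares libraries with both comparisons above, hearts with a cell sheet differed in all 10 genes in the infarct zone, where 57.9% of 15687 genes passed, 28.6% as higher and 29.2% as lower. Plin2, Dgat2, Fasn and Scd were higher, with log2 fold changes of 0.56, 1.11, 1.36 and 1.65, and the other 6 were lower, from -0.74 for Dgat1 to -2.81 for Plin5. The cardiomyocyte markers summed to a median of 2538 CPM in cell sheet and 52936 CPM in sham infarct zones, and with the cardiomyocyte or the adipocyte score as a covariate none of the 10 passed (0 of 10). Apart from sham animal 5, the sums of both marker lists did not overlap between these groups. Such fits can therefore hardly separate the scores from the treatment. Plin5 passed in 2 of the 12 fits that left out 1 animal and Scd in 6 of 12, and without cell sheet animal 1 neither passed (adjusted p = 0.0759 and 0.0509). In the border zone 43.6% of 15960 genes passed, 20.4% as higher and 23.2% as lower. Scd (6.25 ± 1.33, adjusted p = 0.00275), Fasn (3.57 ± 0.79, adjusted p = 0.00354) and Dgat2 (2.02 ± 0.64, adjusted p = 0.0226) were higher there, and Fabp4 (-1.02 ± 0.36, adjusted p = 0.0365), Plin4 (-1.20 ± 0.39, adjusted p = 0.0255), Plin5 (-2.11 ± 0.66, adjusted p = 0.0218) and Pnpla2 (-0.78 ± 0.23, adjusted p = 0.0164) were lower. Fabp4 passed in 3 of the 12 fits that left out 1 animal, Plin4 in 10 and Dgat2 in 11. Lipe (0.19 ± 0.27, adjusted p = 0.577) and Plin2 (0.10 ± 0.15, adjusted p = 0.615) did not pass. Dgat1 did not pass with all animals (adjusted p = 0.108) and passed as lower without sham animal 5 (-0.56, adjusted p = 0.000679).

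In the remote zone, 1 of 15157 genes (0.00660%) passed between cell sheet and sham hearts with edgeR, with 1520 at an unadjusted p under 0.05, and none of the 10 did (0 of 10). DESeq2 called 173 genes and none of the 10 (0 of 10). Plin4 had medians of 295 CPM in sham, 123 CPM in MI and 258 CPM in cell sheet remote zones, Plin5 of 71.4, 29.8 and 67.9 CPM, Dgat1 of 48.4, 33.4 and 48.9 CPM, and Pnpla2 of 243, 113 and 197 CPM. A p that misses the threshold does not show that the groups are alike, and the SE of the log2 difference between cell sheet and sham was 0.29 for Plin4, 0.37 for Plin5, 0.24 for Pnpla2 and 0.16 for Dgat1. The count of 0 of the 10 genes was the same without sham animal 5, without cell sheet animal 1 and without both.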

How the data were processed

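Poly(A)-selected RNA of 54 left ventricular pieces was sequenced by the study as paired reads. The authors aligned reads with STAR to mRatBN7.2 with a RefSeq annotation and deposited whole-number counts per gene, with no normalization. Counter and strand setting are not given in the sources used here, so overlapping genes and the near-copies Scd and Scd2 are uncertain. Whether reads of the human sheet are among the counts was not tested. The 5 summary lines per table, 17.0% to 42.8% of its counts, were left out.

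Groups came from the labels. Each comparison was fitted on its 2 groups in R 4.3.3 with edgeR 4.0.16 (quasi-likelihood F test, TMM, filterByExpr), with Benjamini-Hochberg adjustment over all genes tested and a threshold of 0.05. SEs are the log2 fold change divided by the root of F. Interactions had the animal as a block. DESeq2 1.42.0, limma 3.58.1 (voom), other filters and scalings, marker scores (mean log2 CPM, prior count 2), a replicate block and leaving out each animal were alternatives. No pair of libraries of a group agreed within sampling noise (chi-square over degrees of freedom at least 7.97). The edgeR test was tried on simulated counts for cell sheet against MI in the border zone and for its border against remote difference. These counts had the same spread for every gene and no animal that stood apart, so they do not cover the spread seen here. The named genes are the 10 genes, fixed pathway and marker genes, and the 3 most alike genes for each of the 10, of which 1 is not reported here. The 10 genes and the lists were chosen with earlier results of these data known.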

Additional observations from a re-analysis of the deposited data

Results flagged for a closer look

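In 24 of 90 groups of 6 libraries the highest or lowest value of 1 of the 10 genes stood apart from the others by Dixon's test, with a critical value of 0.625, where chance gives about 1 in 20. Sham animal 5 gave 17 of these. In its infarct, border and remote zones it had 292, 226 and 113 CPM of Fabp4, 38.6, 40.6 and 58.7 CPM of Lipe, 68.7, 64.1 and 118 CPM of Plin4, 16.7, 17.2 and 20.8 CPM of Plin5, and 27.6, 24.2 and 26.5 CPM of Dgat1, each the lowest of the sham group. Its Fasn was the highest of the sham group in the border zone, at 63.6 CPM, and in the remote zone, at 62.1 CPM.

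Cell sheet animal 1 was the lowest of its group for Plin4 in the remote zone (88.6 CPM), for Plin5 in the border and remote zones (0.27 and 15.1 CPM) and for Dgat1 in the remote zone (32.0 CPM). Cell sheet animal 6 had the highest Dgat1 of its group in the infarct zone (37.1 CPM). MI animal 1 had the lowest Fasn of its group in the infarct zone (35.3 CPM) and the remote zone (25.8 CPM).

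The effect of MI differed between the infarct and the remote zone for Fabp4, by a log2 difference of -1.19, for Plin5, by -2.03, and for Fasn, by 0.74, in edgeR's test of the difference with the animal as a block.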

How the results depend on the processing

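Of 918 alternative values for the 46 called results of single genes, 686 kept sign and side of the threshold, 219 kept the sign only and 13 changed sign, and 3 of the 46 results kept both in every alternative. The number of the 10 genes passing MI against sham was 0 in the infarct and 0 in the border zone with the cardiomyocyte score as a covariate and 1 in the remote zone, and 0, 2 and 2 with the adipocyte score. Without a filter it was 5 in the border zone. With library size scaling it was 2 in the remote zone, and with all 54 libraries in 1 fit also 2. For cell sheet against MI it was 6 (cardiomyocyte score) and 0 (adipocyte score) in the border zone. Remotely it was 1 and 0, and 1 with all 54 libraries, and 0 in the summed zones with the adipocyte score. For cell sheet against sham it was 0 and 0 in the infarct zone. At the border it was 2 and 0, and 4 with library size scaling. The cause of these changes was not tested. The share of all genes passing in these alternatives is not given here.

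The turns of sign below are those of called values and of other log2 fold changes that the report prints with all animals and no covariate. Over all results of single genes that did not pass, 97 of 1541 alternative values had the opposite sign, 0 of them with an adjusted p under 0.05 by the tool of that alternative. With the cardiomyocyte score, signs turned for Fabp4 (0.38), Lipe (0.40), Plin2 (-0.10) and Dgat2 (-0.25) in MI against sham in the infarct zone, for Fabp4 (0.58), Plin2 (-0.15), Plin5 (0.0195) and Dgat2 (-0.34) in the border zone, and for Lipe (0.12), Plin5 (0.32) and Dgat1 (0.0436) in the remote zone. They also turned for Plin5 (0.21) in cell sheet against MI in the border zone, and against sham for Lipe (0.15), Plin5 (0.17) and Dgat2 (-0.35) in the infarct and Plin2 (-0.12) in the border zone. With the adipocyte score they turned for Scd (-0.40) in MI against sham in the border zone, for Plin5 (0.31) and Dgat2 (-1.97) in cell sheet against MI in the border zone, and against sham for Scd (-0.31) in the infarct zone and Lipe (-0.75), Plin2 (-0.10), Dgat2 (-1.33) and Scd (-0.86) in the border zone. Without sham animal 5 and cell sheet animal 1 together, an alternative chosen after seeing the data, Lipe was at -0.0173 in the border zone against sham.

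Leaving out 1 animal gave 6 to 9, 3 to 9 and 2 to 6 of the 10 genes for MI against sham in the infarct, border and remote zones, 0, 2 to 4 and 0 to 5 for cell sheet against MI, 7 to 10, 5 to 8 and 0 for cell sheet against sham, 1 to 2 in the summed zones, 3 to 7 for the difference in the MI effect and 0 for both differences in the cell sheet effect. Among the same values, signs turned for Plin5 (-0.29 to 0.19) and Dgat2 (-0.16 to 1.36) in cell sheet against MI in the border zone and for Scd (-0.75 to 0.14) in the difference in the MI effect.

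Same-numbered animals of different groups did not deviate together (correlations from -0.74 to 0.61), so the numbers do not pair them. With the replicate number as a block, 2 of the 10 genes passed for MI against sham in the border zone, 1 and 0 for cell sheet against MI in the border and remote zones, 0 in the summed zones and 3 for cell sheet against sham in the border zone, and Plin5 was at 0.0572 in cell sheet against MI in the border zone. Library size scaling moved the median of all genes from -0.02 to 0.24 for MI against sham in the infarct zone, with 5587 genes higher and 2735 lower instead of 3580 and 4286. No called value of the 10 genes changed sign with it. Counts of 3 or fewer, 0.116 to 0.262 CPM by library, limit what can be said of Scd and Plin5 where they were low.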
